A study of Homo sapiens with 9 samples.

Results

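Retained introns of more than 500 bases were described in HCT-116 cells, a long-established line from a human colon carcinoma. A retained intron is one that is left in an RNA that is otherwise spliced. The deposited splicing tables list 4552 distinct retained introns, and the 1387 with a length over 500 bases (30.5%) were taken by that length alone, with no measured value used. They lie in 1047 genes. Of them, 1325 are in the table of ORF with NC, 1310 in the table of MT with NC, and 1248 in both.

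The study set out to ask how a peptide encoded by LINC00266-1, a long non-coding RNA gene, bears on mRNA splicing. It has 3 groups of 3 RNA-seq libraries. ORF cells stably express the open reading frame of LINC00266-1. MT cells are labelled as stably expressing 5'UTR-ORFmut, a form whose ATG start codon was changed to ATT. NC cells carry a blank vector. All groups share the HCT-116 background and the same medium; whether a group is 1 clone or a pool is not stated.

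Introns are removed from most pre-mRNAs by the spliceosome, which reads a 5′ splice site that begins with GT and a 3′ splice site that ends with AG. An intron that stays in the RNA usually brings an early stop codon into the reading frame, and such an RNA is either held in the nucleus (a detained intron) or degraded in the cytoplasm by nonsense-mediated decay. Genes for splicing factors and other RNA-binding proteins are known for using retained introns and skipped exons to adjust their own output. In most human cells retained introns are short and rich in G and C, so long ones are the less typical kind.

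The measure is the inclusion level, the share of an event's reads, scaled by length, that come from the form with the intron. A level of 0 means fully spliced and 1 fully retained. Each level rests on 2 read counts per library, here called retained-form reads and spliced-form reads. The tables give 3 values per group with no replicate number, so libraries are given in the order listed, and no library of one group is paired with one of another.

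Of the libraries as a whole, LINC00266-1 held 9951, 10229 and 10310 reads in ORF, against 1, 0 and 0 in NC. The 3 libraries labelled MT also held only 1, 0 and 0 reads of it, so the counts go against a label that names an expressed construct, and every result below for that group is that of the libraries labelled MT. Recovered gene reads ran between 19460596 and 24370517 per library. All 8 colon epithelial markers were found, summing to 3660 to 5030 CPM (counts per M reads). All 6 fibroblast markers were found too, summing to 0.558 to 2.48 CPM. Of the blood markers 3 of 5 were found (0.294 to 0.637 CPM), and of the hepatocyte markers 2 of 3 (0.0821 to 0.862 CPM). Of the kidney and neural markers 2 of 4 were found (7.81 to 13.0 CPM). No reads were recovered for CD3E and PTPRC of blood cells, TTR of hepatocytes or NEFL and NEFM of neurons. No source says that the 3 libraries of a group came from separate cultures, so every p-value measures only the spread between these libraries.

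The long introns had a median length of 976 bases, with quartiles at 679 and 1514 bases and a range of 501 to 9137 bases. For each, the whole retained form, the intron with both flanking exons, matched a single annotated exon of GENCODE 29. Protein-coding genes made up 97.3% of the hosts (1019 of 1047). The gene with the most was SPG7, a mitochondrial protease gene, with 11, and 231 genes had more than 1, so introns of the same gene are not independent. On both sides of the length limit introns at low and at high levels occurred. Just inside it, the SMARCE1 intron of 501 bases had levels of 0.002, 0.005 and 0.003 in ORF and 0.007, 0.003 and 0.008 in NC, and the CD22 intron of 503 bases 0.314, 1.0 and 1.0 in ORF and 1.0 in each NC library. Just outside it, the PLXNB1 intron of 500 bases had levels of 0.08, 1.0 and 0.166 in ORF and 0.147, 0.232 and 0.251 in NC, and the ADCY3 intron of 498 bases 0.008, 0.0 and 0.0 in ORF and 0.0, 0.004 and 0.0 in NC.

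Most long introns interrupt the coding region, 1021 of 1387 (73.6%). A further 87 lie in a 3' UTR, 46 in a 5' UTR and 64 in non-coding transcripts. In the remaining 169 (12.2%), no annotated transcript of the same gene splices the 2 flanking exons together. The annotation also holds the retained form. For 1042 introns (75.1%) it is a transcript of the class "retained intron", for 163 (11.8%) a protein-coding transcript, and for 118 (8.51%) a target of nonsense-mediated decay.

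A property that matters for reading the levels is what lies inside the span. In 517 long introns (37.3%), another annotated exon of the same gene lies wholly inside, against 194 of 3165 shorter retained introns (6.13%). For these, the spliced form is a junction that skips the inner exon. Where a spliced RNA uses the inner exon, its reads there can also count toward the retained form. Whether the inner exons are used in these cells, or are first or last exons, was not examined. The inclusion level of these introns can thus be a mixture of retention and of inclusion of the inner exon, and the values do not separate them. A small RNA gene lay inside 25 long introns, and an exon of a gene on the opposite strand inside 29.

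By base composition the long introns differed from the shorter ones. The median GC content was 49.5% (quartiles 40.5 and 57.5) in the long and 59.4% (quartiles 51.1 and 65.5) in the shorter introns. An in-frame stop codon was present in 1007 of 1021 long coding introns (98.6%), at a median of codon 18, against 1944 of 2606 shorter ones (74.6%), at a median of codon 14. The ends were alike: GT and AG bound 98.1% of the long introns and 98.2% of the shorter ones. The median match of the 5′ splice site to the consensus cagGTaagt was 6 of 9 bases in both sets. Ends of AT and AC, the mark of a minor class of introns, occurred in 1 long intron, in SMYD2, a protein methyltransferase gene.

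The splice sites of long introns to which the comparisons below return are shown first, because strong and weak sites both occur among them. They were read from the GENCODE 29 transcripts (GRCh38), with 3 exon and 6 intron bases at the 5′ site and 20 intron and 3 exon bases at the 3′ site. Capitals mark the first and last bases of the intron.
CIRBP, chr19:1272052-1274306, plus strand, 5′ site: acgGTaagt
CIRBP, 3′ site: acgctgctttgctttggcAGgtt
HNRNPH3, chr10:68337334-68338502, plus strand, 5′ site: aagGTacct
HNRNPH3, 3′ site: cttaaaacatttttaaatAGgta
SNRPA1, chr15:101285802-101286907, minus strand, 5′ site: aaaGTaagt
SNRPA1, 3′ site: atgttcttccccctcttaAGttt
EIF4A2, chr3:186784697-186785882, plus strand, 5′ site: aagGTaaaa
EIF4A2, 3′ site: aattaaggcttgggttttAGatc
CDCA7, chr2:173363896-173364794, plus strand, 5′ site: tcaGTaagt
CDCA7, 3′ site: cttatacgtgctttgtttAGcaa
RSRP1, chr1:25243634-25245149, minus strand, 5′ site: gaaGTaagt
RSRP1, 3′ site: ctttttcttaacctgtctAGctg
GAS8, chr16:90036587-90037231, plus strand, 5′ site: aagGTgctg
GAS8, 3′ site: gcctgtgcttgtgcctgcAGgag
AHSA2P, chr2:61185619-61186445, plus strand, 5′ site: gagGTaagt
AHSA2P, 3′ site: aatttcccctctcttttcAGtta
The number of bases that match the consensus ran between 4 of 9, in GAS8, and 8 of 9, in AHSA2P. HNRNPH3, EIF4A2 and CDCA7 had 6, and CIRBP, SNRPA1 and RSRP1 had 7. The AHSA2P 3′ site is an almost unbroken run of pyrimidines before the AG, while that of HNRNPH3 holds several A bases in the last positions.

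The comparison of ORF with NC asks whether long introns are retained differently when the reading frame is expressed. Their levels were lower in ORF as a set. Over the 498 long introns that could be tested (at least 20 reads per library on average in both groups, and a level over all libraries of 0.05 to 0.95), the median level was 0.263, 0.334 and 0.283 in the 3 ORF libraries, against 0.343, 0.342 and 0.404 in the 3 NC libraries. All 3 ORF libraries lay below all 3 NC libraries, although the gap between the nearest of them was small. The difference of mean log2 odds of retention (ORF minus NC) had a median of -0.46, and 362 of 498 introns (72.7%) had a lower mean level in ORF. Over all 1562 retained introns tested, the median was -0.37 with 70% at a lower mean level, and over the 1064 shorter ones it was -0.32. Whether the long introns moved more than the shorter ones was not tested.

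The reads of both forms are given as listed. Retained-form reads summed to 96300, 92761 and 94239 in ORF and to 107986, 118071 and 120997 in NC. Spliced-form reads summed to 35987, 30055 and 32390 in ORF and to 30768, 34953 and 29789 in NC. These sums, and the read counts of single introns below, are not scaled for depth, because the libraries in these tables carry no number that ties them to a library total. Sums as close as these are therefore not read as a change in 1 form alone. In bulk libraries, fewer cells with an RNA and less of it per cell cannot be told apart.

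**Figure D1:**
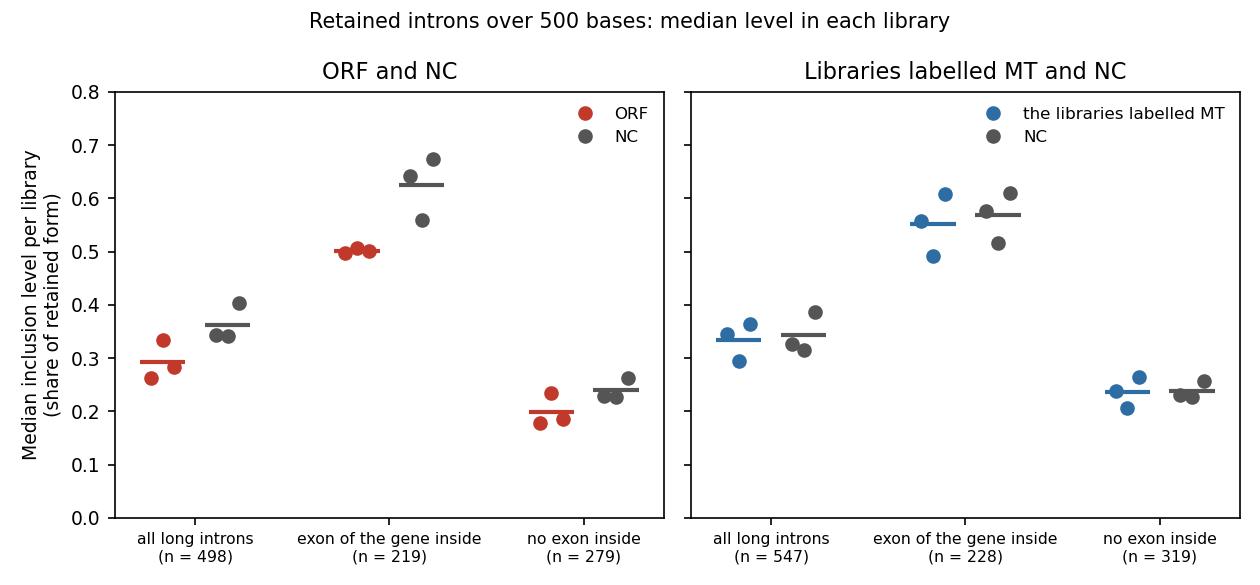
Median inclusion level (y axis, 0 to 0.8) of the tested long introns in each library, for ORF with NC (left) and for the libraries labelled MT with NC (right). Points are libraries in the order listed and lines are their means. Over all long introns the ORF points lie at 0.263 to 0.334 and the NC points at 0.342 to 0.404, while on the right the 2 groups overlap.

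The lower level was seen with and without an exon inside the span. For the 219 introns with an inner exon, the median level was 0.497, 0.506 and 0.501 in ORF, against 0.643, 0.56 and 0.674 in NC. For the 279 without one, it was 0.179, 0.235 and 0.185 in ORF, against 0.229, 0.227 and 0.262 in NC. The groups did not overlap in the first set and did in the second. The median difference of log2 odds was -0.49 with and -0.44 without an inner exon.

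By length, the 78 introns over 2000 bases had median levels of 0.542, 0.556 and 0.526 in ORF and 0.661, 0.632 and 0.738 in NC, with a median difference of log2 odds of -0.49. The other length classes were at -0.45 for the 138 introns up to 700 bases, -0.50 for the 112 up to 1000 bases and -0.44 for the 170 up to 2000 bases. By base composition, the median difference was -0.62 in the 148 introns with the lowest GC content, -0.48 in the 184 of the middle class and -0.36 in the 166 with the highest. In the lowest class retained-form reads were 17270, 28671 and 25368 in ORF and 31906, 32784 and 41720 in NC. In the middle class they were 51060, 42582 and 43906 in ORF and 50421, 56302 and 52336 in NC. Reads by GC content were thus uneven between libraries, and the part of this in the differences was not tested. The median levels per library overlapped between ORF and NC in each of these 3 GC classes, as they did in the length class of 700 to 1000 bases, and did not in the other 3 length classes. By place, the 352 coding introns had a median of -0.44, the 40 in 3' UTRs -0.49 and the 29 in non-coding transcripts -0.66. It was -0.99 in the 54 whose exon pair is not annotated as spliced. Those stood high, with median levels of 0.79, 0.827 and 0.738 in ORF and 0.953, 0.865 and 0.883 in NC. Their spliced form rested on few reads, in all 1322 in ORF and 965 in NC over the 54 introns. The libraries labelled MT minus NC had a median of -0.27 in 3' UTR introns, with 33 of 46 lower, and 0.03 in coding introns. ORF minus MT had a median of -0.2 in 3' UTR introns, with 20 of 39 lower. In coding introns it was -0.46, with 259 of 347 lower. The 23 introns in 5' UTRs had a median of 0.09 in ORF minus NC. At an unadjusted limma p under 0.05, 3 were lower and none higher, while 8 of the 23 had a lower mean level in ORF. Their median level was 0.338, 0.372 and 0.418 in ORF and 0.389, 0.398 and 0.42 in NC, which overlap, and ORF minus MT had a median of -0.17. These are descriptions of the classes; differences between them were not tested.

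**Figure D2:**
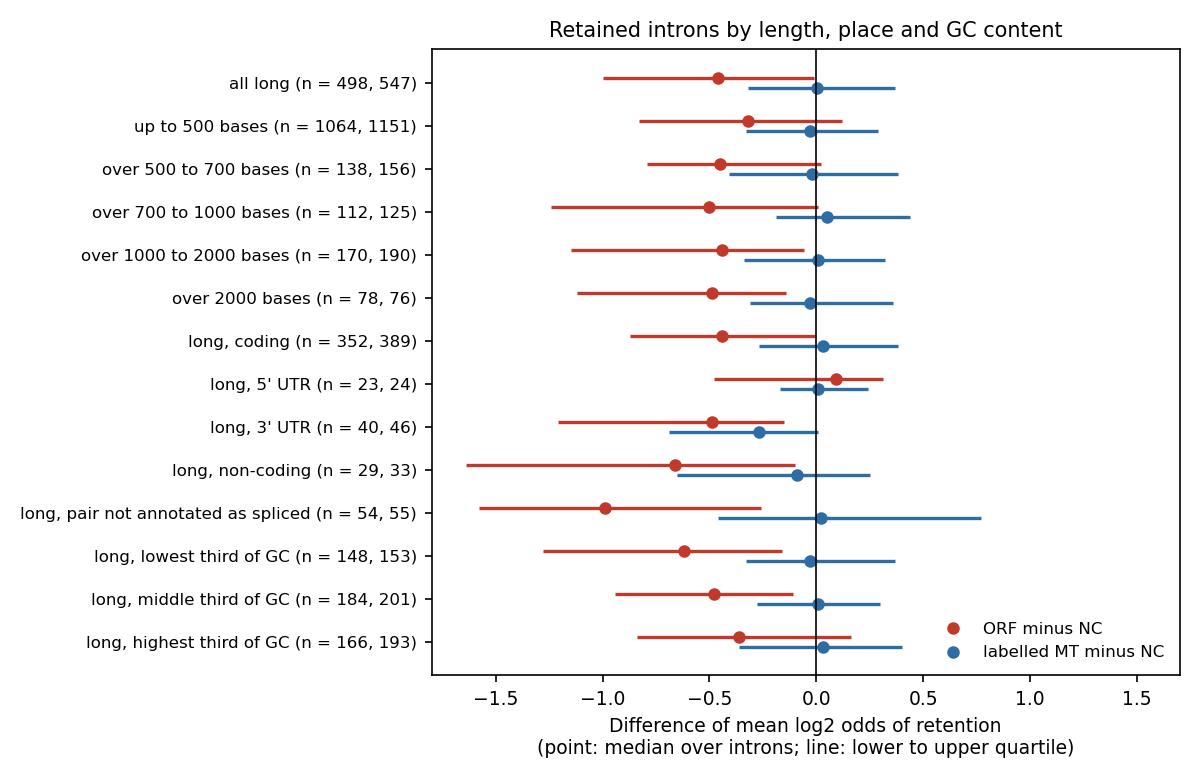
Difference of mean log2 odds of retention (x axis) for retained introns by length, place and GC content, with the numbers tested in the ORF table and in the MT table in brackets. Points are medians over introns and lines run between the quartiles. ORF minus NC lies below 0 in every class but the 5' UTR (0.09), while the libraries labelled MT minus NC lie near 0, with 3' UTR introns at -0.27.

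No single long intron passed the main test. limma on the log2 odds called 0 of 498 at an adjusted p below 0.05 and a level difference of at least 0.05, where it also called 0 of all 1562 retained introns (0%). The smallest adjusted p was 0.0911. At an unadjusted p under 0.05 there were 77 lower and 5 higher long introns, 15.5% and 1% of those tested, against 14.1% and 1.22% of all retained introns. In 81 long introns (16.3%) all 3 ORF libraries lay below all 3 NC libraries, and in 12 (2.41%) above, against 17.7% and 3.07% of all retained introns.

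A second test, edgeR's quasi-likelihood test on the reads of both forms, called 17 long introns lower in ORF and none higher (3.41% of 498), against 2.56% of all retained introns. limma with its variance trend on reads called 5, where it called 0.576% of all retained introns. In 16 of the 17 that edgeR called, the groups did not overlap. Over the 17, retained-form reads summed to 5160, 5593 and 5465 in ORF and 6575, 6766 and 7486 in NC. Spliced-form reads summed to 1680, 1688 and 1884 in ORF and 893, 1008 and 913 in NC. The introns were chosen by the ratio of these reads, so the sums describe them and test nothing. An exon of the same gene lies inside 12 of the 17 spans, so for those the spliced form is a junction that skips that exon. The count depended on single libraries. It was 3 without the ORF library listed last, 5 without the NC library listed first, 8 without the NC library listed last and at most 19 with any other left out, and 3 introns, those in RPS9 and HMGN1 among them, were called without each library in turn.

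**Figure D3:**
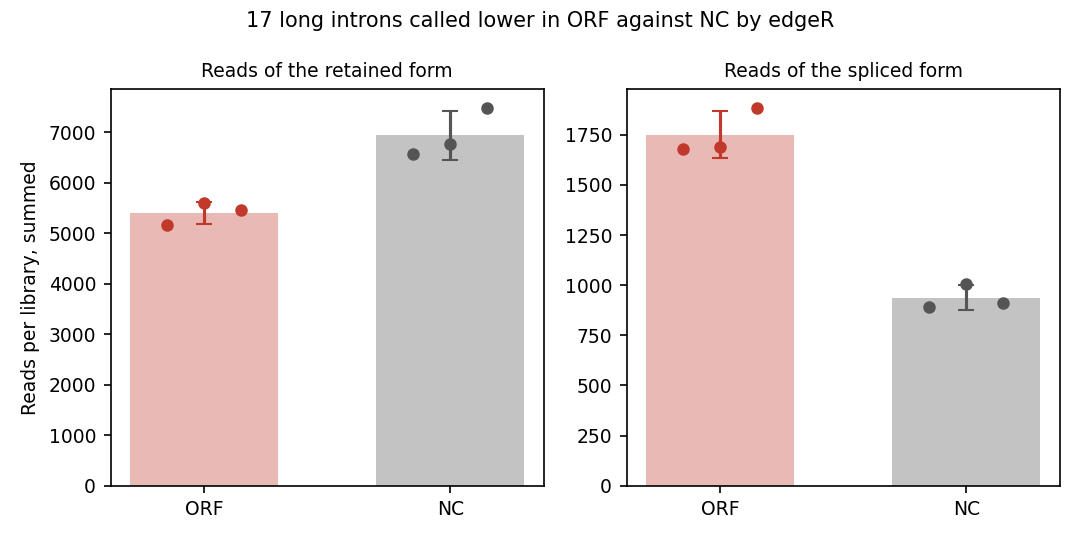
Summed reads per library (y axis, from 0) of the retained form (left) and the spliced form (right) over the 17 long introns that edgeR called lower in ORF against NC, which were chosen by the ratio of these reads. Bars are means of 3 libraries, error bars are SD and points are libraries. Retained-form sums are 5160 to 5593 in ORF and 6575 to 7486 in NC, and spliced-form sums are 1680 to 1884 in ORF and 893 to 1008 in NC.

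**Figure D4:**
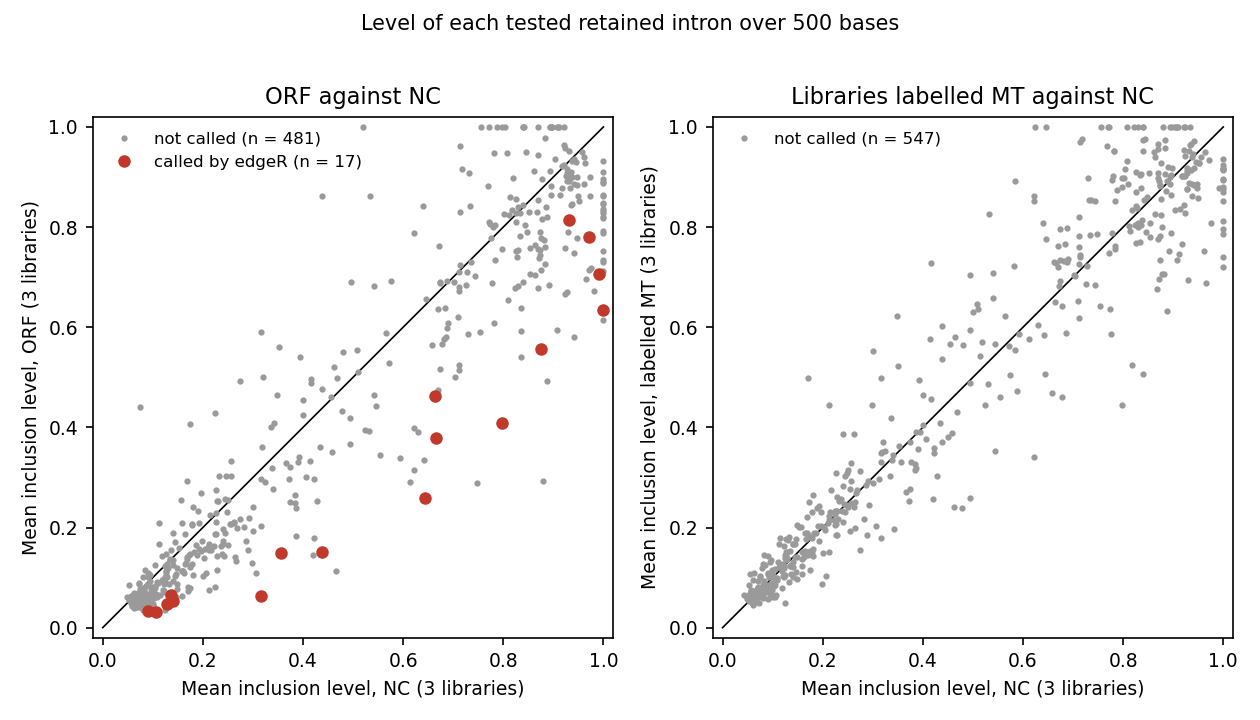
Mean inclusion level of each tested long intron, in ORF (left) or in the libraries labelled MT (right) on the y axis and in NC on the x axis; the line marks equal levels. Coloured points are the 17 introns called by edgeR, all below the line, and grey points are the other 481 on the left and all 547 on the right.

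RPS9, which encodes a protein of the small ribosomal subunit, had the smallest edgeR p. Its long intron (673 bases, chr19:54206725-54207397, plus strand) lies in the 3' UTR, and no other exon lies inside. The level was 0.142, 0.145 and 0.163 in ORF, against 0.336, 0.354 and 0.379 in NC. Every ORF library was far below every NC library. Retained-form reads were 419, 294 and 441 in ORF and 355, 399 and 354 in NC, whereas spliced-form reads were 459, 313 and 410 in ORF and 127, 132 and 105 in NC. The retained form overlapped between the groups and the spliced form did not. The log2 odds differed by -1.65 ± 0.25 (SE; limma adjusted p = 0.0911, edgeR adjusted p = 0.000593). The level in the libraries labelled MT was 0.388, 0.287 and 0.319. RPS9 as a gene had a log2 fold change of 0.25 in ORF (limma adjusted p = 0.517).

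HNRNPH3, of the hnRNP family of RNA-binding proteins that steer splice site choice, had a span of 1169 bases with an inner exon. The level was 0.02, 0.095 and 0.074 in ORF, against 0.223, 0.286 and 0.443 in NC. Spliced-form reads were 111, 111 and 118 in ORF and 33, 22 and 24 in NC, all ORF counts above all NC counts. The edgeR adjusted p was 0.0115 and the limma adjusted p 0.193, with a difference of -2.99 ± 0.67 (SE) in log2 odds. The gene as a whole had a log2 fold change of -0.0029.

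CIRBP encodes a cold-inducible RNA-binding protein. Its span of 2255 bases, with an inner exon, had a level of 0.497, 0.468 and 0.421 in ORF, against 0.637, 0.677 and 0.676 in NC, again without overlap. Retained-form reads were 2917, 2246 and 2380 in ORF and 2492, 2835 and 2254 in NC, which overlap. Spliced-form reads were 183, 158 and 203 in ORF and 88, 84 and 67 in NC, which do not. The log2 odds differed by -1.19 ± 0.35 (SE; limma adjusted p = 0.217, edgeR adjusted p = 0.00745).

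Among spliceosome genes, SNRPA1, which encodes a protein of the U2 snRNP, had an intron span of 1106 bases with a level of 0.099, 0.252 and 0.105 in ORF, against 0.546, 0.363 and 0.409 in NC (edgeR adjusted p = 0.0234). SF3B1, which encodes the largest subunit of the U2-associated SF3b complex, had a 1476-base intron at 1.0, 0.621 and 0.722 in ORF, against 0.915, 1.0 and 1.0 in NC (edgeR adjusted p = 0.0495). This was the called intron whose groups overlapped: the first ORF library was at 1.0. Its spliced form rested on 0, 15 and 7 reads in ORF and 3, 0 and 0 in NC.

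EIF4A2, a helicase gene of translation initiation that hosts small nucleolar RNAs, had a 1186-base span with a small RNA and an exon inside. Its level was 0.044, 0.08 and 0.071 in ORF, against 0.139, 0.129 and 0.141 in NC (edgeR adjusted p = 0.0148). RACK1, which encodes a scaffold protein of the ribosome, had 5 long retained introns. The 530-base form of one, with a small RNA inside, had a level of 0.798, 0.871 and 0.775 in ORF, against 0.923, 0.923 and 0.95 in NC (edgeR adjusted p = 0.0324). A 610-base form that overlaps it and shares its reads had 0.957, 0.951 and 0.966 in ORF, against 0.97, 0.908 and 0.895 in NC (edgeR adjusted p = 0.436). The neighbouring pairs of splice sites in that region thus gave unlike values.

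Of genes for proteins rich in arginine and serine, RSRP1 had a 1516-base span at 0.404, 0.611 and 0.656 in ORF, against 0.951, 0.814 and 0.864 in NC (edgeR adjusted p = 0.0432). RSRC2 had a 2355-base span at 0.027, 0.072 and 0.061 in ORF, against 0.131, 0.125 and 0.168 in NC (edgeR adjusted p = 0.0274). In both genes the libraries did not overlap and an exon lies inside. A second RSRC2 span of 2333 bases that shares nearly all its retained-form reads had 1.0, 0.766 and 0.65 in ORF and 1.0, 0.771 and 0.759 in NC (edgeR adjusted p = 0.719). The spliced form it is set against is another junction.

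HMGN1 encodes a nucleosome-binding protein. Its 1288-base intron in the 3' UTR, chr21:39345959-39347246 on the minus strand, had a level of 0.536, 0.799 and 0.787 in ORF, against 0.972, 1.0 and 1.0 in NC (edgeR adjusted p = 0.0115). Spliced-form reads were 8, 6 and 5 in ORF and 1, 0 and 0 in NC, so the groups are apart but on few reads. The same holds for DDX11, a DNA helicase gene, whose 734-base intron had 5, 8 and 2 spliced-form reads in ORF and 0, 0 and 0 in NC (edgeR adjusted p = 0.0234). Its level was 0.58, 0.537 and 0.788 in ORF and 1.0 in each NC library. RPS9 and HMGN1 have processed pseudogenes and DDX11 has a near-identical copy, DDX12P. How reads shared with such copies were assigned is not stated in the sources used, so these values are uncertain.

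The remaining called introns lie in genes of unrelated roles. AHSA2P, a transcribed pseudogene of a co-chaperone, had a level of 0.248, 0.384 and 0.142 in ORF, against 0.663, 0.564 and 0.704 in NC. TRIM27, a ubiquitin ligase gene, had a 4142-base span that is not annotated as spliced, at 0.524, 0.279 and 0.423 in ORF, against 0.88, 0.709 and 0.806 in NC. GAS8, a gene of the ciliary dynein regulatory complex, had 0.048, 0.05 and 0.043 in ORF, against 0.116, 0.088 and 0.184 in NC. In all of these the libraries were apart, by a wide gap in AHSA2P and TRIM27 and at a low level in GAS8. CDCA7, a MYC-responsive gene of chromatin, averaged 0.0327 ± 0.00569 in ORF and 0.0913 ± 0.0242 in NC. MFAP2, a gene of extracellular microfibrils, averaged 0.0317 ± 0.00751 in ORF and 0.106 ± 0.00751 in NC (SD, n = 3 each). The edgeR adjusted p-values of these 5 ran between 0.0253 and 0.0443. On average GAS8, CDCA7 and MFAP2 stood under the lower level limit of 0.05 in ORF. They passed that filter through NC, so their edgeR values only describe them.

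**Figure D5:**
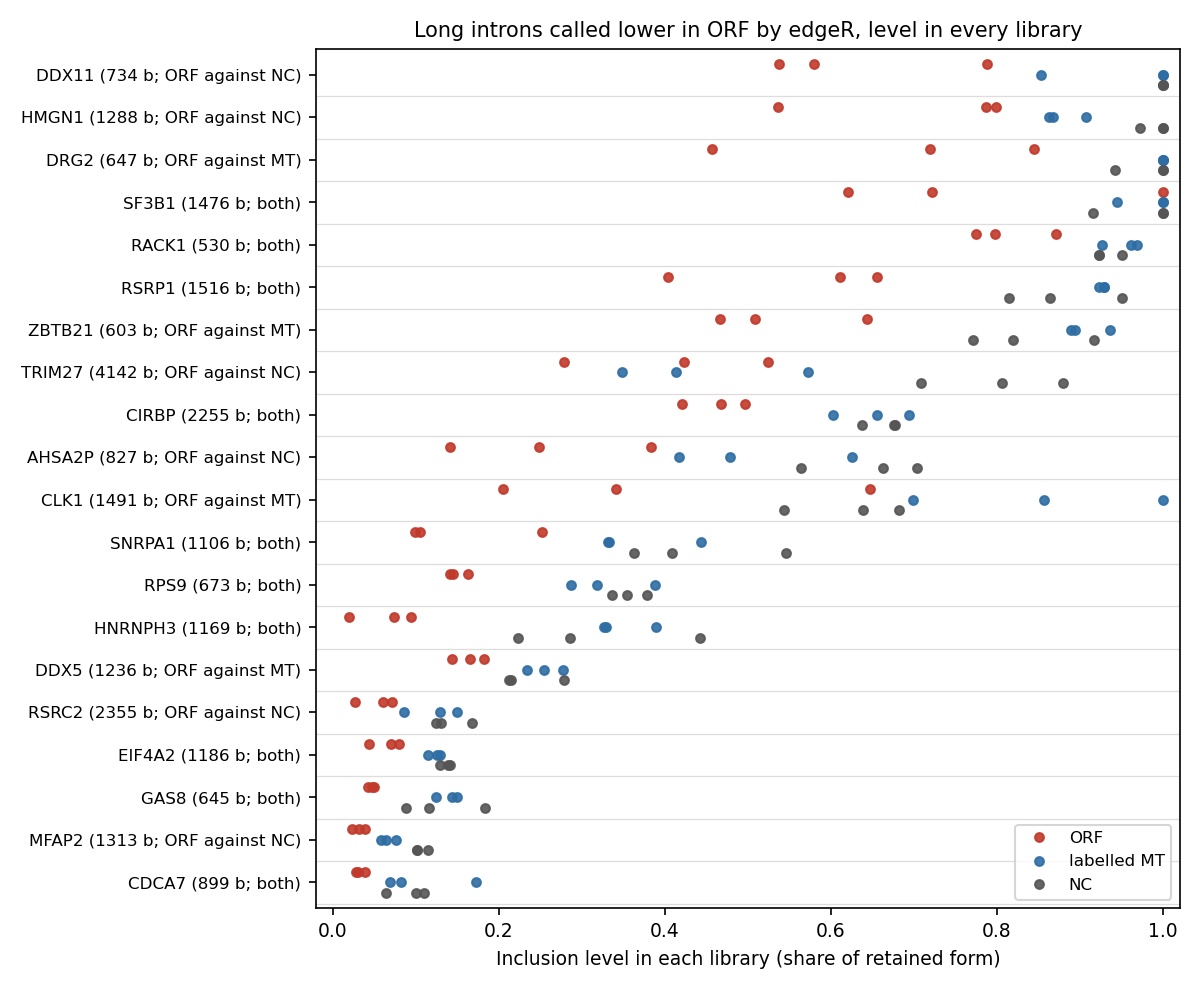
Inclusion level in every library (x axis, 0 to 1) of 20 of the 21 long introns that edgeR called lower in ORF against NC, against the libraries labelled MT, or against both, as written beside each name with the length in bases. Introns are ordered by the NC mean, each with 3 points per group, with ORF on top, the libraries labelled MT in the middle and NC at the bottom. ORF means lie to the left of both other groups, while single ORF points overlap others in SF3B1 (1 point at 1.0), in TRIM27 with the libraries labelled MT and in CLK1 with NC.

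TMEM91 and SHMT2 had among the 10 smallest limma p-values without an edgeR call. SHMT2, the mitochondrial enzyme of serine and glycine metabolism, had 0.116, 0.13 and 0.084 in ORF, against 0.394, 0.21 and 0.316 in NC (limma adjusted p = 0.18). TMEM91, a membrane protein gene, had 0.77, 0.789 and 0.596 in ORF, against 1.0, 1.0 and 0.928 in NC (limma adjusted p = 0.171). In both the libraries were apart, and neither passed the threshold. All 10 introns with the smallest p were lower in ORF.

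Gene lists were read across the long introns they hold. Of 48 genes with introns known to be retained or detained, 22 had a long retained intron, 36 introns in all. In ORF against NC, 24 of the 26 tested were lower (72.7% over all long introns tested, 70% over all retained introns). The median difference of log2 odds in the list was -0.70, against -0.46 and -0.37. limma called 0 and edgeR called 2, against 3.41% of the long and 2.56% of all retained introns. The lists that follow are small, and these shares are the ones to set beside them. Some list members are introns of the same gene, as in RSRC2, RSRP1, CLK1 and EWSR1, so the counts are not of independent genes. DDX5, an RNA helicase gene, had 0.144, 0.182 and 0.166 in ORF and 0.215, 0.213 and 0.279 in NC (edgeR adjusted p = 0.139). DDX17, its paralogue, had 0.129, 0.188 and 0.166 in ORF and 0.21, 0.18 and 0.242 in NC, which overlap. ARGLU1, a splicing coactivator gene, had 0.155, 0.274 and 0.204 in ORF and 0.273, 0.224 and 0.293 in NC, which overlap too. EWSR1, an RNA-binding protein gene, had 2 spans that share their reads; the one of 2778 bases was at 0.044, 0.075 and 0.075 in ORF and 0.083, 0.078 and 0.128 in NC.

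Of 28 SR protein and related genes, 11 had 17 long introns. Of the 11 tested, 10 were lower and the median was -1.06, against 72.7% and -0.46 over all long introns tested. edgeR called 2, those in RSRC2 and RSRP1, against 3.41% of the long introns. SRSF5 and SRSF7, which encode SR splicing factors, overlapped between the groups. SRSF5 was at 0.083, 0.128 and 0.124 in ORF and 0.125, 0.107 and 0.15 in NC, and SRSF7 at 0.046, 0.07 and 0.065 in ORF and 0.064, 0.054 and 0.082 in NC. TRA2A, an SR-like regulator, had 0.692, 0.792 and 1.0 in ORF and 0.855, 0.692 and 0.93 in NC.

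Of 16 splicing kinase genes, 5 had 12 long introns. The 5 tested were all lower and the median was -1.19, against 72.7% and -0.46 over all long introns tested, and neither tool called any. CLK1, a kinase that phosphorylates SR proteins and is known for detained introns, had a 1491-base span at 0.205, 0.647 and 0.341 in ORF and 0.639, 0.544 and 0.682 in NC, where the second ORF library reached into the NC range. CLK3 had a 1894-base intron at 0.063, 0.071 and 0.08 in ORF and 0.095, 0.097 and 0.107 in NC, apart but close (edgeR adjusted p = 0.319).

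Of 46 hnRNP and other splicing regulator genes, 11 had 17 long introns. Of the 10 tested, 9 were lower and the median was -0.70, against 72.7% and -0.46 over all long introns tested. edgeR called 2, that in HNRNPH3 among them, against 3.41% of the long introns. RBM39, a U2AF-related regulator, was at 0.027, 0.053 and 0.028 in ORF and 0.068, 0.066 and 0.106 in NC, with an edgeR adjusted p of 0.0324 but a level difference under 0.05. HNRNPH1 was at 0.279, 0.244 and 0.35 in ORF and 0.284, 0.275 and 0.417 in NC, which overlap. Of 50 core spliceosome genes, 9 had 11 long introns, and the 2 tested are those in SNRPA1 and SF3B1 above, both called by edgeR, against 3.41% of the long introns.

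Of 27 snoRNA host genes, whose introns carry small nucleolar RNAs, 8 had 16 long introns. Of the 7 tested, 6 were lower and the median was -0.93, against 72.7% and -0.46 over all long introns tested. edgeR called 2, in EIF4A2 and RACK1, against 3.41% of the long introns. GAS5, a non-coding host, was at 0.048, 0.073 and 0.061 in ORF and 0.104, 0.106 and 0.116 in NC (edgeR adjusted p = 0.0268, level difference under 0.05). SNHG17 was at 0.215, 0.245 and 0.254 in ORF and 0.425, 0.322 and 0.412 in NC (edgeR adjusted p = 0.158). In both the libraries were apart. Over the 10 tested long introns with a small RNA inside, spliced-form reads summed to 6127 in ORF and 4778 in NC, and retained-form reads to 10829 in ORF and 14234 in NC. These sums are unscaled, and the DDX5 intron holds a large part of them. Its retained-form reads were 1057, 1879 and 1828 in ORF and 2305, 2366 and 2917 in NC. Its spliced-form reads were 678, 907 and 991 in ORF and 904, 938 and 811 in NC, which overlap.

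Of 31 genes of mRNA export and decay, 6 had 8 long introns. Of the 5 tested, 3 were lower and the median was -0.37, against 72.7% and -0.46 over all long introns tested. Neither tool called any of the 5. NXF1, the main mRNA export receptor, whose intron is a known example of regulated retention, had an 1801-base span at 0.117, 0.138 and 0.149 in ORF and 0.144, 0.121 and 0.136 in NC, with a log2 odds difference of 0.01 ± 0.25 (SE). ZC3H11A had a 5' UTR intron at 0.493, 0.372 and 0.5 in ORF and 0.389, 0.398 and 0.413 in NC. The 22 genes of m6A writers, erasers and readers had no long retained intron, and the 2 in immediate early and stress response genes did not pass the filter on reads and level.

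Nuclear and other RNAs that often lack a poly(A) tail were summed beside these values, since retained introns are often nuclear. The list of 16 genes had 405, 560 and 520 CPM in ORF and 453, 430 and 591 in NC, which overlap. No reads were recovered for HIST1H3D, RMRP, RN7SK and RPPH1. Of the 12 tested members, 3 rose in ORF, the histone genes HIST1H2BD, HIST2H2BE and HIST1H1E, against 0.418% of all genes called in either direction. MALAT1, an abundant nuclear RNA, had 514, 1336 and 806 reads in ORF and 950, 1186 and 1838 in NC (limma adjusted p = 0.555). The part of nuclear RNA in the lower levels was not tested.

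At the level of whole genes, limma called 5 of 1043 measured host genes in ORF, all higher (0.479%, against 0.418% of all 24662 genes). The direction depended on single libraries and on the tool, with 26 higher and 31 lower without ORF replicate 1, 73 higher and 34 lower without ORF replicate 2, and 28 higher and 13 lower by DESeq2. Over all genes these settings called 840, 1494 and 558. The median log2 fold change of the hosts was 0.03, against -0.04 over all genes. DHRS2, a dehydrogenase gene, rose 3.0-fold and GADD45B, a stress-induced gene, rose 2.64-fold. MOK, a kinase gene, rose 2.33-fold, and the snoRNA hosts SNHG12 and SNHG5 rose 1.98-fold and 1.8-fold (adjusted p between 0.00169 and 0.0172). The long intron of SNHG12, 578 bases with a small RNA inside, was at 0.047, 0.053 and 0.053 in ORF and 0.083, 0.066 and 0.094 in NC. Its spliced-form reads were 557, 437 and 515 in ORF and 246, 275 and 223 in NC, and its retained-form reads 135, 119 and 142 in ORF and 108, 95 and 113 in NC. The retained-form counts are close enough that unscaled depth matters, and the spliced-form counts were apart. The long intron of SNHG5, 505 bases, was at 0.242, 0.324 and 0.264 in ORF and 0.33, 0.322 and 0.368 in NC.

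Setting the libraries labelled MT against NC asks the same of the start-codon mutant, with the limit that reads of LINC00266-1 were nearly absent there. Long introns stood at like levels. Over 547 tested introns the median level was 0.345, 0.294 and 0.364 in the libraries labelled MT, against 0.327, 0.316 and 0.386 in NC, which overlap. The median difference of log2 odds was 0.00077, with 271 of 547 (49.5%) at a lower mean level, against -0.02 and 51.7% over all 1698 retained introns tested. limma called 0 long introns and 0% of all retained introns; 13 were lower (2.38%) and 16 higher (2.93%) at an unadjusted p under 0.05, against 2.3% and 2.65% of all retained introns. All 3 libraries labelled MT lay below all 3 NC libraries in 23 (4.2%) and above in 34 (6.22%), against 4.59% of all retained introns in each direction. By edgeR, too, 0 long introns and 0 of all 1698 retained introns were called.

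The 10 long introns with the smallest p went both ways, and their limma adjusted p-values ran between 0.631 and 0.812. SPIN3, a gene of a histone reader, was at 1.0 in each library labelled MT, against 0.714, 0.603 and 0.618 in NC. PRPF39, a U1-associated splicing factor gene, was at 0.702, 0.454 and 0.504 in the libraries labelled MT, against 0.267, 0.361 and 0.273 in NC. CRIP1, ESPL1 and PRPF40B were also higher in every library labelled MT than in every NC library. Of those that were lower, TRIM27 was at 0.414, 0.349 and 0.573 in the libraries labelled MT, against 0.88, 0.709 and 0.806 in NC, beside 0.524, 0.279 and 0.423 in ORF. HMGN1 was at 0.868, 0.862 and 0.907 in the libraries labelled MT, against 0.972, 1.0 and 1.0 in NC, and TEN1-CDK3, GALT and AP3D1 were lower too. The same NC libraries serve both comparisons, so a high or low NC value enters both.

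ORF was also set against the libraries labelled MT. By the labels these differ in the start codon, but with 1, 0 and 0 reads of LINC00266-1 in the libraries labelled MT the effect of the start codon and of the construct's RNA cannot be told apart. The 2 groups come from separately deposited tables. The levels are shares within a library, and the NC reads of introns in both tables were the same, so the groups were joined by intron. Over 482 tested long introns the median level was 0.226, 0.284 and 0.255 in ORF. In the libraries labelled MT it was 0.332, 0.278 and 0.352, so the groups overlapped. The median difference of log2 odds (ORF minus MT) was -0.46 over these introns, and 348 (72.2%) had a lower mean level in ORF. Over all 1569 retained introns, these values were -0.36 and 69.2%. limma called 0 long introns, where it called 0.191% of all retained introns. At an unadjusted p under 0.05, 74 were lower (15.4%) and 2 higher (0.415%), against 12.7% and 1.27% of all retained introns, and the smallest adjusted p was 0.0796. All 3 ORF libraries lay below all 3 labelled MT in 90 (18.7%) and above in 8 (1.66%), against 16.6% and 3.25% of all retained introns. edgeR called 15 lower and none higher, 3.11% against 2.42% of all retained introns, and limma with its variance trend on reads called 10, where it called 1.4% of all retained introns. Without 1 library the edgeR count ran between 4 and 24, and 4 introns, those in HNRNPH3, RPS9 and RSRP1 among them, were called without each library in turn. The ORF libraries are the same as in the comparison with NC, so the 2 comparisons are not independent.

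HNRNPH3 differed by -3.23 ± 0.59 in log2 odds (SE; limma adjusted p = 0.0849, edgeR adjusted p = 0.00149) and RPS9 by -1.48 ± 0.29 (SE; limma adjusted p = 0.106, edgeR adjusted p = 0.00174). RSRP1 was at 0.404, 0.611 and 0.656 in ORF, against 0.929, 0.929 and 0.923 in the libraries labelled MT (edgeR adjusted p = 0.0092). CLK1 was at 0.205, 0.647 and 0.341 in ORF, against 0.857, 0.699 and 1.0 in the libraries labelled MT (edgeR adjusted p = 0.0427). DDX5 was at 0.144, 0.182 and 0.166 in ORF, against 0.278, 0.234 and 0.255 in the libraries labelled MT (edgeR adjusted p = 0.036). In each of these all ORF libraries lay below all libraries labelled MT. ZBTB21, a zinc finger gene, was at 0.509, 0.643 and 0.467 in ORF, against 0.889, 0.936 and 0.894 in the libraries labelled MT. DRG2, a GTP-binding protein gene, was at 0.719, 0.457 and 0.844 in ORF and at 1.0 in each library labelled MT.

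At the ends of the scale, the long introns ran between nearly spliced and nearly fully retained in NC. Among the 5 tested introns with the lowest NC mean, ACAD9, a mitochondrial acyl-CoA dehydrogenase gene, was at 0.046, 0.066 and 0.034 in ORF and 0.04, 0.042 and 0.085 in NC. FAM98C was at 0.054, 0.05 and 0.052 in ORF and 0.044, 0.055 and 0.07 in NC. Both overlapped between the groups. Among those at 1.0 in all 3 NC libraries, HARS, the cytosolic histidine-tRNA ligase gene, was at 0.759, 0.796 and 0.908 in ORF, and CIAO3, of cytosolic iron-sulfur assembly, was at 1.0, 1.0 and 0.667. Introns taken for an NC level of 1.0 can only be equal or lower elsewhere, so no comparison is drawn from them.

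The longest tested intron, of 9137 bases in the 3' UTR of KPNA5, an importin gene, was at 1.0, 0.698 and 1.0 in ORF and 0.756, 0.704 and 1.0 in NC, on 0, 1 and 0 spliced-form reads in ORF and 1, 1 and 0 in NC. DCAF7, a WD-repeat scaffold gene, had a 4965-base 3' UTR span with far more reads, 4866, 4521 and 4291 of the retained form in ORF and 5465, 6160 and 5613 in NC. Its level was 0.703, 0.729 and 0.698 in ORF and 0.743, 0.697 and 0.742 in NC, which overlap. SLC22A5, the carnitine transporter gene, was at 0.063, 0.271 and 0.143 in ORF and 0.127, 0.137 and 0.195 in NC over 5665 bases. ANKRD52 was at 0.908, 0.834 and 0.905 in ORF and 0.953, 0.869 and 0.862 in NC over 5269 bases. None of these passed a test.

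The authors' deposited table gives its own adjusted p per event. With an adjusted p below 0.05 and a level difference of at least 0.05, the authors' deposited table holds 162 of 1325 long introns for ORF with NC (12.2%), 127 lower and 35 higher, against 11.1% of all retained introns. For MT with NC the authors' deposited table holds 84 of 1310 (6.41%), 37 lower and 47 higher, against 6.09%. These shares of the long introns are close to those of all retained introns.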

How the data were processed

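Illumina libraries were made from Trizol-extracted total RNA of HCT-116 cells, 9 in all and 3 per group, per the labels' protocols. The submitters' processing notes name the builds GRCh38 and hg38. Neither the aligner nor the splicing tool nor the use of strand is stated in the sources; the splicing tables have the column layout of rMATS. Per the file headers, the deposited splicing tables hold inclusion levels between 0 and 1 (fractions), whole read counts of both forms, and the authors' p-values, adjusted p-values and level differences, in 1 table for ORF with NC and 1 for MT. The deposited gene tables hold a normalized signal per library, in which each value is a whole multiple of 1 step, and the authors' log2 fold changes and p-values, which were not used.

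Cells of the splicing tables list 3 libraries with no number. The commas between them had been lost where the last 2 numbers both had at least 3 digits. Reads were recovered from the split that matched the deposited levels within 0.001, for 95.65% of the retained introns with ORF and 95.57% with MT (93.51% of the long ones in each), and the rest were left out of the tests. The length is the distance between the flanking exons. Introns were annotated against GENCODE 29 (GRCh38), in which each retained form, with its flanking exons, matches an exon exactly. The annotation's symbols replaced 4 in the form of dates.

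The main test was limma 3.58.1 (R 4.3.3; eBayes with a trend) on the log2 odds of retained over spliced reads, with a pseudocount of 0.5, for introns with at least 20 reads per library on average in both groups and a level over all libraries of 0.05 to 0.95. p-values were Benjamini-Hochberg adjusted over all retained introns of a comparison. An intron was called at an adjusted p below 0.05 and a level difference of at least 0.05. edgeR 4.0.16 on the counts of both forms was the alternative. Reads per gene were recovered from the steps of the signal, and 100% of the values came out whole, to a tolerance of 0.1. Host genes were tested with limma on log2(value + 1). That test was used because the gene tables hold normalized values, and edgeR and DESeq2 1.42.0 on the recovered reads were alternatives. The scripts were tested on simulated data.

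The genes named are those with the largest level differences among called introns or, with fewer than 10 called, those with the 10 smallest p, those called by edgeR, the 10 highest and 5 lowest NC levels, the 5 longest tested, and up to 8 per gene list. Some of these are given only in counts, and some are not reported here. The members and lists were chosen with earlier results of these data known. The replicate numbers of the gene tables do not pair the samples: same-numbered libraries deviated from their group means with correlations of 0.0556, -0.082 and 0.0485 in the ORF table and -0.0098, 0.0843 and 0.104 in the MT table. The number of reads limits each level: an intron with few spliced-form reads can reach a level of 1.0 by sampling alone.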

Additional observations from a re-analysis of the deposited data

How the results depend on the processing

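For ORF against NC, limma called 0 long introns in the test described, as it did with a mean of 10 reads, with no filter, with levels of 0.01 to 0.99, with a pseudocount of 1 or 0.1, with a level difference of 0.1, with array weights, after centring each library, and without each library. It called 5 with the variance trend taken on reads, an alternative chosen after seeing the data, and 2 on the arcsine of the deposited levels. edgeR called 17, and between 3 and 19 with 1 library left out. For the libraries labelled MT against NC, the arcsine test called 4 and the others, edgeR and its leave-one-out runs included, 0. For ORF against the libraries labelled MT, a pseudocount of 0.1 gave 1, the trend on reads 10, and edgeR 15, with 4 to 24 without 1 library. The cause of these differences between tests was not tested. Of 1142 recomputed values for 48 named introns in these comparisons, 153 gained a call; since limma had called none of the long introns, no call could be lost or reversed.

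Host genes called in ORF numbered 5 of 1043, beside 103 of all 24662 genes. They numbered 15 under quantile normalization, 41 by DESeq2 and 17 with the replicate block. Over all genes these settings called 210 of 24662, 558 of 30973 and 301 of 24662. With 1 library left out the host genes called ran between 1 (without ORF replicate 3, and without NC replicate 3) and 107 (without ORF replicate 2). A count of 2 came without NC replicate 1 or 2, and 57 without ORF replicate 1. Calls over all genes moved with them. These were 24 without ORF replicate 3, 36 without NC replicate 3, 840 without ORF replicate 1 and 1494 without ORF replicate 2. In the libraries labelled MT the count of host genes was 0, and 3 with the replicate block, which called 35 of all 25310 genes. No same-numbered pair stood out, so the block shows only that the count moves. For introns, no paired analysis was possible because their columns carry no replicate numbers. Levels near 0 or 1 rest on few reads of 1 form, and 86 long introns of the ORF table had no recoverable reads.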

Other observations

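Several genes carried more than 1 long retained intron besides SPG7. DDX3X, an RNA helicase gene, EIF2B5, of the exchange factor eIF2B, PIGT, of GPI anchor attachment, RACK1, SMARCB1, of the SWI/SNF chromatin remodelling complex, and VPS28, of the ESCRT pathway, had 5 each. By their ends, 24 long introns began with GC and ended with AG. By the annotated exon borders, the intron of TTLL6 ends in TG and that of DDX46 begins with TT.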
